A study of Caenorhabditis elegans with 4 samples.

Results

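GEI-11 binding regions on the arms of chromosome III were described in the worm Caenorhabditis elegans, in hermaphrodites at the fed L1 stage, the first larval stage. An arm is the outer part of a chromosome. Here the left arm held the combined regions whose centre lay below position 4600000 of chromosome III in the WormBase WS220 build, and the right arm those whose centre lay above 9200000. The combined list held 648 such regions of 5999 on all chromosomes, 299 on the left arm and 349 on the right arm. The middle of chromosome III held another 388. The same positions gave 347 regions in the ChIP replicate 1 list of 3021 (149 left, 198 right) and 424 in the ChIP replicate 2 list of 3722 (182 left, 242 right).

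The lists come from chromatin immunoprecipitation and sequencing (ChIP-seq) with antibodies against GFP. The study has 2 ChIP samples and 2 input samples (whole-cell extract without immunoprecipitation), numbered as replicates 1 and 2. Because 0 input lists were used, no input regions could be set beside the ChIP regions. Whether the authors' q values took the inputs into account is not given in the sources used here. All samples are strain OP179, with the mutation unc-119(ed3) on chromosome III and the bombarded transgene wgIs179, which holds unc-119(+) and gei-11 joined to TY1, EGFP and 3xFLAG. The larvae grew on HB101 bacteria at 20 °C and were fixed in 2% formaldehyde. Nothing in the labels ties a replicate to a culture of its own, so their spread may be technical, and the fusion is read over whole larvae, not over 1 tissue. The chromosome III gene unc-119, which the transgene carries again, was not placed in WS220, so whether a region lies at it is not analysed here.

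GEI-11 is also named SNPC-4 and is a subunit of SNAPc, the small nuclear RNA activating protein complex. SNAPc binds the proximal sequence element upstream of small nuclear RNA genes and recruits RNA polymerase II or III to them. In C. elegans SNPC-4 is also known to be needed for the abundance of piRNAs, small RNAs that guard the germ line. Chromosome arms in this worm are known to recombine more, to hold more repeats and fewer essential genes, and to lie at the nuclear envelope, whereas centres hold more conserved and broadly expressed genes. The gene table at hand lists 13 small nuclear RNA genes and 64 tRNA genes on chromosome III, of 129 and 634 in the genome. That table belongs to the WBcel235 assembly, so regions are named by WS220 position alone. What is annotated at each position, and its sequence, is not analysed here.

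The authors gave each region 1 value, a q value (a p-value adjusted for many tests), and no q exceeded 0.01. It is given here as −log10 q, so that a larger number means a stronger call within its list. Sequencing depth is unknown and a q value depends on it, so −log10 q ranks regions in a list and does not compare occupancy between lists. Regions of different lists were matched where they shared at least 1 bp. Intervals of shares are exact Clopper-Pearson at 95% and reflect only counting error.

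GEI-11 regions were thinner on the arms of chromosome III than in its middle, while their density stood above that over all chromosomes. The arms held 70.7 combined regions per Mb and the centre 84.3 per Mb, a density ratio of 0.838 (95% interval 0.737 to 0.952, two-sided exact binomial test, adjusted p = 0.0208). Over all chromosomes the list held 59.9 regions per Mb, and 58.8 per Mb outside the arms of III. The arms carried 10.8% of all regions on 9.15% of the length, a difference that was not tested. Density over blocks of 1 Mb averaged 68.0 ± 16.5 per Mb on the arms (SD over 8 blocks) and 88 ± 13.0 in the centre (SD over 4 blocks). Blocks that straddle a border were left out, and the last block, 0.771 Mb long, was scaled to 1 Mb. Arm blocks ran from 46 to 90 per Mb and centre blocks from 76 to 105, so the ranges overlapped. The call ended in each replicate list alone, with ratios of 0.870 (adjusted exact binomial p = 0.246) in replicate 1 and 0.882 (adjusted p = 0.256) in replicate 2. It also ended among the stronger 50% of regions (0.920, adjusted exact binomial p = 0.593), after merging within 1 kb (0.846, 0.0578) and without the densest centre block, 5 to 6 Mb (0.899, 0.271). The call was kept with arms made of the outermost of 4 equal lengths (0.771, adjusted exact binomial p = 0.000176). It was also kept for regions of at least 50 bp (0.820, adjusted exact binomial p = 0.0148). The arms differed from each other here. In the combined list the left arm had 65 regions per Mb and the right arm 76.3. In replicate 1 the right arm had 43.3 per Mb, beside 43.5 in the centre and 32.4 on the left arm. Replicate 2 had 52.9 on the right arm, 52.4 in the centre and 39.6 on the left arm. Neither arm alone was tested against the centre. The binomial test counts regions as independent although neighbours cluster.

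The left arm had fewer regions per Mb than the right, by a margin that did not pass the test for all combined regions within the borders used here, though it did in both replicate lists. Density was 65 combined regions per Mb on the left arm and 76.3 on the right arm, a ratio of 0.851 (interval 0.727 to 0.996) that did not pass after adjustment (exact binomial adjusted p = 0.103). It did not pass with regions merged within 1 kb (0.837, adjusted exact binomial p = 0.0958) or without the densest arm block, 11 to 12 Mb (0.896, 0.401). The combined list did pass among its stronger 50% of regions (0.692, adjusted exact binomial p = 0.00387), for regions of at least 50 bp (0.811, 0.0303) and with arms made of the outermost of 4 equal lengths (0.70, 0.000951). In the replicate lists the left arm was thinner still. Replicate 1 had 32.4 regions per Mb on the left arm and 43.3 on the right arm (ratio 0.748, adjusted exact binomial p = 0.0181). Replicate 2 had 39.6 and 52.9 (ratio 0.747, adjusted exact binomial p = 0.0148). In replicate 1 the left blocks of 1 Mb ran from 23 to 31 per Mb and the right blocks from 31 to 53, so they met only at 31. In replicate 2 the left blocks ran from 27 to 46 per Mb and the right blocks from 46 to 62, again meeting at 1 value. The combined blocks overlapped, at 46 to 83 on the left and 56 to 90 on the right. These blocks leave out the part of the left arm next to its border, from 4 to 4.6 Mb, which was among its densest. They also leave out the right arm from 9.2 to 10 Mb. The inner 1 Mb of the right arm had 40 regions per Mb in replicate 1 and 43 in replicate 2, the latter within the range of the left blocks. The inner 0.5 Mb of the left arm had 58 regions per Mb in replicate 1 and 68 in replicate 2, above every right-arm block of 1 Mb.

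**Figure D1:**
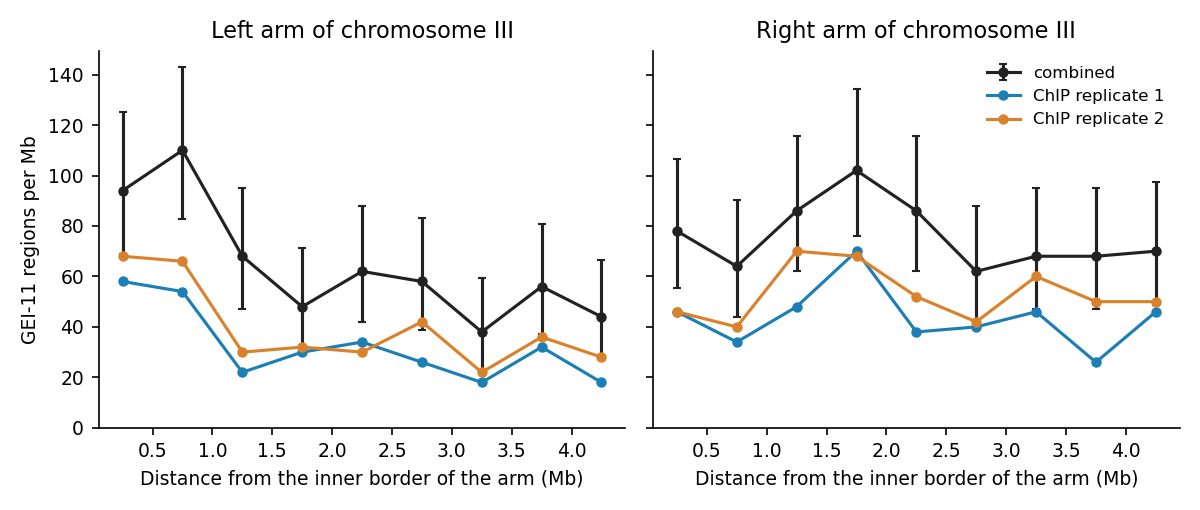
GEI-11 regions per Mb (vertical axis) in steps of 500 kb by distance in Mb from the inner border of the left arm and of the right arm, for the combined list (black, bars are 95% Poisson intervals, counting error only) and the 2 ChIP replicate lists; the shorter last step of each arm is not drawn. On the left arm the first 2 steps stand at 94 and 110 combined regions per Mb and later drawn steps between 38 and 68. The right arm peaks at 102 between 1.5 and 2 Mb. The undrawn last steps held 10 combined regions on the left arm (100 per Mb, interval 48.0 to 184) and 7 on the right arm (98.0 per Mb, interval 39.4 to 202).

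The inner 1 Mb of the left arm held 102 combined regions, 34.1% of that arm, and the rest of the arm 54.7 per Mb. Replicate 1 had 56 regions in that inner 1 Mb and 25.8 per Mb beyond it, and replicate 2 had 67 and 31.9. In all 3 lists the left arm was thus denser next to its border than further out. The right arm had no such step, with 71 combined regions in its inner 1 Mb and 77.8 per Mb beyond. In the combined list and in replicate 1 it peaked between 1.5 and 2 Mb from its border. Replicate 2 had 68 per Mb there and 70 between 1 and 1.5 Mb. These bins were chosen after the values were seen and carry no test.

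At the scale of 100 kb, the 91 windows of the arms held between 1 and 15 combined regions, with a median of 6 on the left and 8 on the right. No window of either arm was empty. The fullest was 11300001 to 11400000 on the right arm, with 15 combined regions, 8 in replicate 1 and 11 in replicate 2. Next came 9600001 to 9700000 with 14, of which 6 were met in both replicates. Windows from 3300001, 9800001 and 11000001 held 13 each. These 3 differed in support, since the left-arm window from 3300001 had only 2 of its 13 met in both replicates, whereas the right-arm windows from 9800001 and 11000001 had 5 and 6. The longest stretch without any combined region was 126.6 kb on the left arm, from 2172455 to 2299016, and 125 kb on the right arm, from 12713993 to 12838901.

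Strong regions were more frequent on the right arm than on the left. A q of 1e-10 or less was reached by 46 of 299 left-arm regions (15.4%, interval 11.5 to 20.0) and by 86 of 349 right-arm regions (24.6%, interval 20.2 to 29.5), against a background of 19.7% over all combined regions. The difference, left minus right, was −9.26 percentage points (two-sided Fisher's exact test, adjusted p = 0.0208). Density of such regions was 10.0 per Mb on the left arm and 18.8 per Mb on the right arm. In the single replicate lists the left share was also the lower, and the difference did not pass. Replicate 1 had 14 of 149 on the left (9.40%) and 29 of 198 on the right (14.6%, adjusted Fisher's exact p = 0.375), with a background of 11.5%. Replicate 2 had 22 of 182 on the left (12.1%) and 39 of 242 on the right (16.1%, adjusted Fisher's exact p = 0.443), with a background of 14.2%. The call also ended without the block from 11 to 12 Mb, which held 27 strong regions, at −7.40 points (adjusted Fisher's exact p = 0.0993), for a q of 1e-20 or less (−4.01 points, 0.167) and for the first 500 regions of the list (−4.77 points, 0.103).

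Both arms together did not pass the same test against the centre. Of the arm regions 132 (20.4%, interval 17.3 to 23.7) reached 1e-10, as did 67 centre regions (17.3%, interval 13.6 to 21.4), a difference of 3.10 points (Fisher's exact adjusted p = 0.423). Median −log10 q was 3.86 on the left arm, 4.95 on the right arm, 4.02 in the centre and 4.20 over all regions. The order left below right held for the medians of both replicate lists, with 3.20 and 3.99 in replicate 1 and 3.44 and 3.97 in replicate 2. Of the first 100 combined regions by q, 2 were on the left arm and 9 on the right arm, so 11 of the 648 members (1.70%) ranked that high, beside a background of 1.67%. Of the first 500, 20 were on the left arm and 40 on the right. The arms therefore held 60 of the first 500 regions, which is 9.26% of their 648 members beside 8.33% over all regions.

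**Figure D2:**
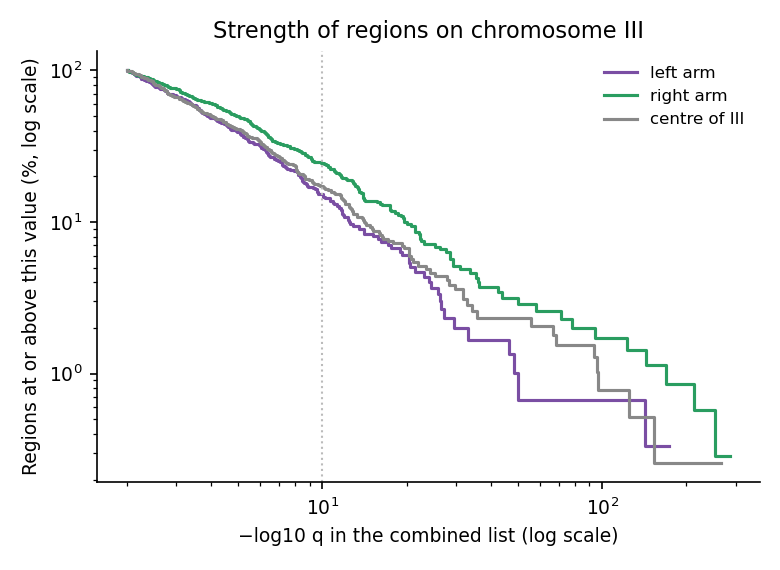
Share of regions (vertical axis, percent, log scale) at or above each −log10 q of the combined list (horizontal axis, log scale) for the left arm, the right arm and the centre of chromosome III; the dotted line marks 10. The right-arm curve lies highest at that line, with 24.6% of regions at or above it, beside 15.4% on the left arm and 17.3% in the centre.

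Strong regions lay further apart on the left arm, where they were fewer (46, beside 86 on the right arm). No comparison of spacing allowed for these counts. Successive regions with a q of 1e-10 or less were a median of 61.0 kb apart on the left arm and 26.5 kb on the right arm. The longest stretch without one was 578 kb on the left arm, from 1950596 to 2528628, and 283 kb on the right arm, from 11967290 to 12249870. The corresponding left-arm stretches were 843 kb in replicate 1, from 1925601 to 2768647, and 675 kb in replicate 2, from 1921729 to 2597079. Both span the combined stretch. Fewer left-arm regions reached this q in replicate 1 (14) and replicate 2 (22) than in the combined list (46). A stretch without strong combined regions would thus rarely hold strong replicate regions, so the overlap is not independent evidence. The right-arm stretch of the combined list ended at 1 of its strongest regions, described next.

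On the right arm the 8 strongest regions met in both replicates ranked from 1 to 80 in the combined list. The region 11090082 to 11091142, 1061 bp wide, had a −log10 q of 285 when combined, with 172 for replicate 1 and 224 for replicate 2. The region 10989144 to 10990057 (914 bp) had 254 when combined, with 215 for replicate 1 and 237 for replicate 2. Only 100.0 kb separated these, the top-ranked and third-ranked regions of the whole combined list. In the replicate 1 list the region from 11090082 ranked 18 and the region from 10989144 ranked 5. The replicate 2 list placed them at 5 and 4. Outside the arms, the strongest replicate regions that met no combined region stood at 292 (replicate 1) and 303 (replicate 2). The top rank therefore holds for the combined list only. The region 12249870 to 12251172 (1303 bp) had 212 when combined, with 185 for replicate 1 and 201 for replicate 2. The region 9716986 to 9717550 (565 bp) had 169, 114 and 148 in the combined, replicate 1 and replicate 2 lists. The region 11463589 to 11464161 (573 bp) had 143, 86.6 and 107 in the same order. All 5 of these were strong in both replicates, and −log10 q was the higher in replicate 2 each time.

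The other named right-arm regions were weaker in the combined list. The region 9408237 to 9408628, only 392 bp wide, had a −log10 q of 94.6 when combined, with 43.3 for replicate 1 and 66.4 for replicate 2. The region 11792508 to 11793172 (665 bp) had 77.9, 28.6 and 55.7. The widest region of either arm, 10016442 to 10018902, spanned 2461 bp and had a −log10 q of 123 in the combined list. Here the replicates went apart. Replicate 1 listed 1 region of 2515 bp with a −log10 q of 113, rank 40 in its list. Replicate 2 listed 3 separate regions inside the same span, of 493, 12 and 156 bp, with −log10 q of 7.79, 3.07 and 2.72. Of the 264 matched pairs on the arms this was the only one in which replicate 1 was higher by more than 20 units of −log10 q, while replicate 2 was higher by that much in 9. Over all chromosomes 2 of 2344 pairs had such a lead of replicate 1.

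On the left arm the 8 strongest regions met in both replicates ranked from 30 to 276, and their −log10 q fell off quickly after the second. The region 4413725 to 4414350 (626 bp) had 173 when combined, with 130.1 for replicate 1 and 153 for replicate 2. The region 4426754 to 4427238 (485 bp) had 142, 89.8 and 118 in the combined, replicate 1 and replicate 2 lists. These lay 12.4 kb apart in the inner 1 Mb of the arm, and the next left-arm region was far weaker. The region 4281833 to 4282640 (808 bp) had 50.0, 19.0 and 29.7. The region 3377657 to 3378314 (658 bp) had 48.3, 22.7 and 27.8. For the region 3867277 to 3867746 (470 bp) the order of the replicates turned, at 46.4 when combined, 29.7 for replicate 1 and 21.2 for replicate 2.

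Further out on the left arm the named regions were weaker. The region 2795334 to 2796030 (697 bp) had a −log10 q of 33.1 when combined, with 9.69 for replicate 1 and 22.0 for replicate 2. The region 2785819 to 2786223 (405 bp), 9.11 kb away, had 27.2, 15.0 and 12.7. The outermost named region, 1920864 to 1921742 (879 bp), had 29.6, 13.1 and 17.0. Over the 8 named regions −log10 q in the combined list had a median of 47.4 on the left arm and 156 on the right arm. Their ranges, 27.2 to 173 on the left and 77.9 to 285 on the right, overlapped.

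Replicate support on the arms was near that of the whole list. Of the 648 arm regions, 262 met a region in both replicates (40.4%, interval 36.6 to 44.3, background 38.8%). Another 55 met replicate 1 only (8.49%, background 8.15%), 138 met replicate 2 only (21.3%, background 19.9%) and 193 met neither (29.8%, interval 26.3 to 33.5, background 33.2%). In the centre 147 of 388 met both (37.9%, interval 33.0 to 42.9), and the difference of 2.55 points, arms minus centre, did not pass (Fisher's exact adjusted p = 0.616). On the left arm 109 of 299 regions met both (36.5%, interval 31.0 to 42.2), and on the right arm 153 of 349 (43.8%, interval 38.6 to 49.2). That difference of −7.38 points, left minus right, did not pass either (Fisher's exact adjusted p = 0.130). How the combined list was made from the replicates is not given in the sources used here, so meeting a replicate is not independent evidence for a combined region.

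**Figure D3:**
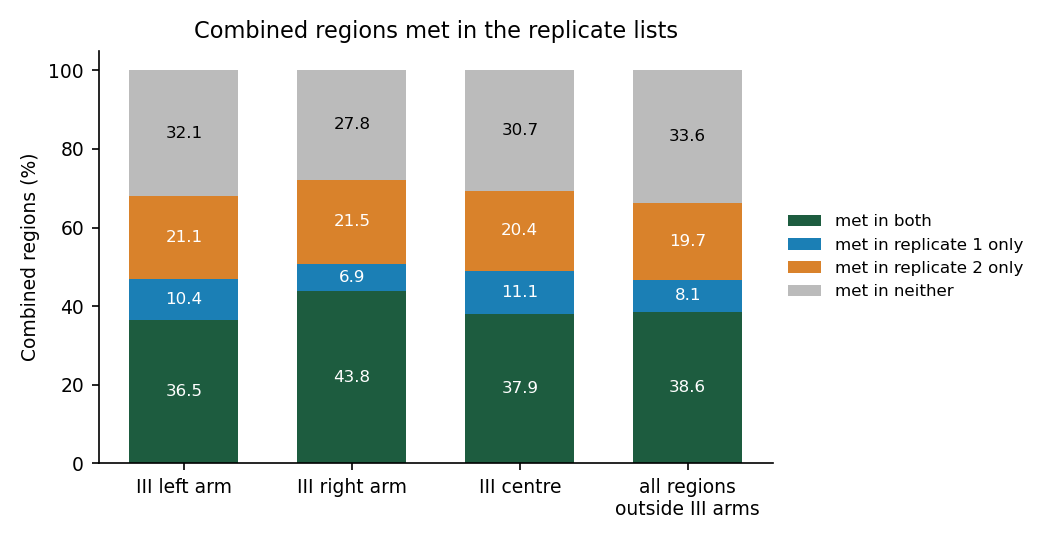
Share of combined regions (vertical axis, percent) met in both ChIP replicate lists, in 1 of them or in neither, for the left and right arms of chromosome III, its centre and all regions outside the arms. The share met in both is 36.5% on the left arm and 43.8% on the right arm, beside 37.9% in the centre and 38.6% outside the arms.

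Support followed strength on the arms as in the whole list. All 132 arm regions with a −log10 q of 10 or more were met in both replicates, and 0 of the 180 below 3 were. Over all regions these counts were 1177 of 1181 and 0 of 1961. Between 5 and 10 the share was 73.6% of 72 regions on the left arm and 70.5% of 88 on the right arm, beside 71.3% of 1398 over all regions. Between 3 and 5 it was 11.6% of 86 regions on the left arm and 5.56% of 90 on the right arm, beside 10.3% of 1459 over all regions. In both of these classes the left arm had the higher share, which was not tested. The left arm had more regions than the right in the weakest class and fewer in the strongest. There were 95 left-arm and 85 right-arm regions below 3, and 18 left-arm and 35 right-arm regions at 20 or above.

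Seen from the replicates, 264 of 347 arm regions of replicate 1 were met in replicate 2 (76.1%, interval 71.2 to 80.5, background 77.6%). In replicate 2, 265 of 424 were met in replicate 1 (62.5%, interval 57.7 to 67.1, background 63.0%). Neither share passed the test against regions outside the arms, at −1.71 points in replicate 1 (Fisher's exact adjusted p = 0.617) and −0.508 points in replicate 2 (Fisher's exact adjusted p = 0.831). The unmet arm regions were weak, with median −log10 q values of 2.55 (replicate 1) and 2.59 (replicate 2), and at most 7.25 and 6.78. Met arm regions had medians of 4.34 and 5.28. A combined region was met by 321 of the 347 replicate 1 members (92.5%, background 94.5%) and by 403 of the 424 replicate 2 members (background 95.6%).

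Regions of the replicates were paired only where they overlapped, which in itself limits how far apart the centres of a pair can lie. The centres of the 264 matched pairs were a median of 30 bp apart, and 227 pairs (86.0%) lay within 100 bp, beside 30 bp and 87.3% over all 2344 pairs. Over these 264 pairs Pearson's r between the −log10 q values was 0.953 and Spearman's rho 0.722. Without the discordant 2.5 kb region of replicate 1, Pearson's r was 0.989 over 263 pairs and rho 0.722. These pairs come from 1 pair of libraries and share their depths, so the correlations are descriptions. Replicate 2 had the higher −log10 q in 181 of the 264 pairs (68.6%), with a median difference, replicate 2 minus replicate 1, of 1.11. Over all 2344 pairs the share was 71.5% and the median difference 1.06.

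**Figure D4:**
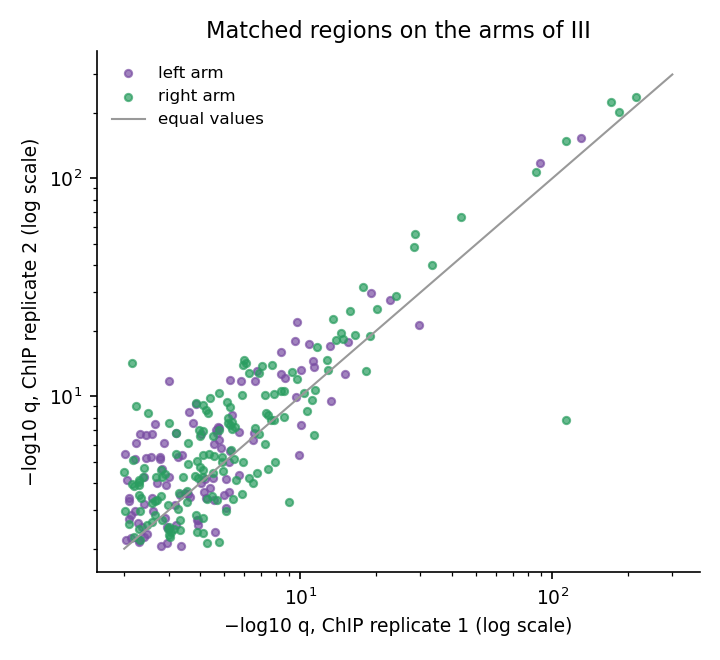
−log10 q of matched arm regions in ChIP replicate 1 (horizontal axis) and ChIP replicate 2 (vertical axis), both on log scales, by arm; the line marks equal values. Most points lie above the line, and a single right-arm region, at 113 in replicate 1 and 7.79 in replicate 2, stands far below it.

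Width rose with strength on both arms. Median width was 308 bp on the left arm and 284 bp on the right arm, beside 310 bp in the centre and 315 bp over all regions. Spearman's rho between width and −log10 q was 0.754 over the 299 left-arm regions and 0.755 over the 349 right-arm regions, beside 0.682 over all regions. From the weakest class, below 3, to the strongest, 20 or above, median width went up class by class over the arms, through 138.5 bp, 255 bp, 348.5 bp, 402 bp and 582 bp. The arms held 62 regions of 600 bp or more (9.57%, background 11.2%), 24 left and 38 right, of which 54 were met in both replicates (87.1%, beside 77.3% of 670 over all regions). Regions narrower than 50 bp numbered 56 (8.64%, background 7.30%), 33 on the left arm and 23 on the right. Of those 56, 0 were met in both replicates and 45 in neither (80.4%), beside 0 and 374 (85.4%) of 438 over all regions.

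**Figure D5:**
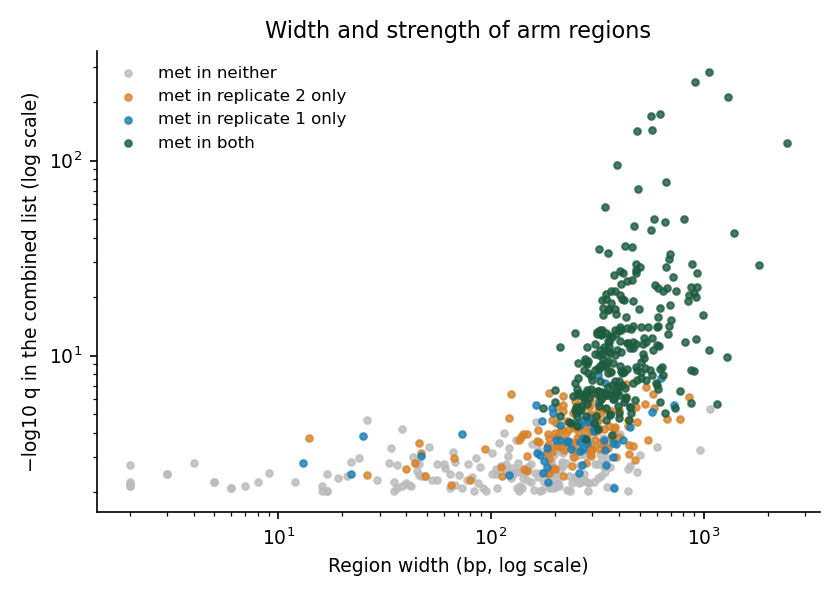
Width in bp (horizontal axis, log scale) and −log10 q in the combined list (vertical axis, log scale) of the 648 arm regions, coloured by the replicate lists they met. Regions met in both replicates fill the upper right, and the 56 regions narrower than 50 bp reach a −log10 q of at most 4.69.

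Close neighbours were found on the arms and in the centre at shares that the test did not separate. A gap of 1 kb or less to the next region was seen for 157 arm regions (24.2%, background 21.0%) and 97 centre regions (25%), a difference of −0.772 points (Fisher's exact adjusted p = 0.831). On the left arm 34 groups were linked by such gaps and on the right arm 35, most of them pairs (26 and 28), and the largest held 4 regions on either arm. The left-arm group of 4, from 1923095 to 1926851, had 3 members met in both replicates and reached a −log10 q of 21.4. It lay beside the outermost named left-arm region. The right-arm group of 4, from 9664319 to 9668605, had 1 member met in both and reached 12.1.

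Of the 16 named regions, 5 had a neighbour within 1 kb, 4 of them on the left arm. Among all arm regions with a −log10 q of 20 or more, 32.1% of 53 had one, beside 25.2% of 448 over all chromosomes. By arm this share was 38.9% of 18 on the left and 28.6% of 35 on the right, a difference that was not tested. The 6 neighbours of the named regions lay between 314 and 648 bp away and were weak beside these, with −log10 q from 2.56 to 6.11. None of the 6 was met in both replicates and 4 were met in neither. Beside the strongest right-arm region, for example, 11091563 to 11091818 had a −log10 q of 5.56 and was met in replicate 2 only.

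Set beside the arms of chromosome V, taken as the outer of 3 equal lengths, the arms of chromosome III were denser. They held 70.7 combined regions per Mb, against 49.1 on the arms of V (687 regions), a ratio of 1.44 (interval 1.29 to 1.61, exact binomial adjusted p = 3.54e-10). Density over blocks of 1 Mb averaged 68.0 ± 16.5 per Mb on the arms of III (SD over 8 blocks), against 49.2 ± 9.52 on those of V (SD over 14 blocks). The ranges overlapped, at 46 to 90 on III and 36 to 69.7 on V. The ratio was 1.65 in replicate 1 and 1.56 in replicate 2. The share of strong regions was close, at 20.4% on the arms of III and 18.8% on those of V, a difference that was not tested.

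At the borders that define the arms, the regions just inside and just outside had −log10 q values between 2.51 and 4.75, beside a median of 4.20 over all regions. The last left-arm region, 4587186 to 4587457, had a −log10 q of 3.33, and the first centre region after it, 4612661 to 4612919, had 2.51. The first right-arm region, 9228165 to 9228456, had 4.75, and the last centre region before it, 9191043 to 9191534, had 4.16. The regions nearest the chromosome ends were met in neither replicate. The first, 3165 to 3167, was 3 bp wide with a −log10 q of 2.47, and the last, 13771116 to 13771394, had 3.09. The strongest arm regions met in neither replicate were 3388906 to 3389974 on the left, 1069 bp wide with a −log10 q of 5.30, and 10537637 to 10537662 on the right, 26 bp wide with 4.69.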

How the data were processed

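Per the file headers, the authors deposited PeakSeq regions in WormBase WS220, with positions lifted from an earlier, unnamed build, and each region's only deposited value is a q value. The aligner, versions, filters, use of inputs and way of combining replicates are each not given in the sources used here. Depth is unknown. Regions were split at 4600000 and 9200000 by their centre and matched by an overlap of at least 1 bp. Lengths were taken to the furthest region end in any list (13771394 on chromosome III). The arms of chromosome V ended at 7 Mb and began at 13.9 Mb. Densities were compared by two-sided exact binomial tests and shares by two-sided Fisher's exact tests in scipy 1.17.1 (Python 3.11.15), adjusted by the Benjamini-Hochberg method over 10 tests, with 0.05 as the threshold. Both treat regions as independent, which neighbouring regions are not. In an alternative, its p took the place of that result's main p among the 10, so no adjustment was made over the alternatives. Scripts were tested on simulated data.

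Named regions were the 8 with the smallest q on each arm that met both replicates, the 5 fullest windows of 100 kb, those at borders and ends, and the strongest unmatched ones, ties broken by position. Stretches without regions, linked groups, neighbours of named regions and the inner 1 Mb were chosen after their values were seen. Members and lists were chosen with earlier results of these data known. Alternatives changed matching, strength, width, borders, merging and the list used. No sequence or gene position was used, since no genome of the WS220 build was at hand.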

Additional observations from a re-analysis of the deposited data

How the results depend on the processing

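Of 75 alternatives, 52 kept direction and side of the threshold (or stayed within the interval), 10 lost a call, 5 gained one, 6 turned direction and 2 moved beyond the interval; 4 alternatives, those that leave out a block or the named regions, were chosen after seeing the data. Most of the 52 belong to results that had no call to lose. The lost calls all fell on density of arms against centre or on strong regions left against right, which had 8 alternatives each. The excess over the arms of chromosome V kept its call in the 6 tested alternatives, and its ratio ran from 1.36 to 1.65 over all 7. With 1 replicate left out, ratios ran from 0.870 to 0.882 for arms against centre, 0.747 to 0.748 for left against right and 1.56 to 1.65 for the arms of III against V. Differences ran from −5.25 to −4.03 points for strong regions left minus right, 0.694 to 2.89 for strong regions arms minus centre, −0.0493 to 3.48 and −7.80 to −3.89 for support (arms minus centre, left minus right) and −3.53 to 0.0254 for close neighbours. Arm regions not met ran from 38.3% to 51.1% with 1 list alone. By construction this share cannot fall below that for both lists, since a region then needs to miss only 1 list. The stronger 50% of each list gave 0.920 for arms against centre, 0.692 for left against right and 1.49 points for replicate 2 regions met. Arms made of the outermost of 4 equal lengths gave 0.771 for arms against centre and 0.70 for left against right. Regions of at least 50 bp gave 0.820 for arms against centre and 0.811 for left against right. They gave 0.952 points for replicate 2 regions met and 0.428 for close neighbours. Merging within 1 kb gave 0.846 for arms against centre, leaving the densest centre block out 0.899, and gaps of 2 kb 2.44 points for close neighbours. Strong regions, left minus right, gave −4.01 points at a q of 1e-20, −4.77 for the first 500 and −7.40 without the block from 11 to 12 Mb. The left-arm deficit in density thus passed in 5 alternatives but not in the combined list as deposited, after merging within 1 kb (0.837) or without the block from 11 to 12 Mb (0.896); the cause was not tested, for this or the other changes. No paired analysis was possible because no list of input regions was used, and the replicate numbers link ChIP samples only to inputs. Depth is unknown, so its limit on weak regions was not measured.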

Other observations

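On the right arm a pair of replicate regions had no combined counterpart. Replicate 1 listed 10505137 to 10505409 with a −log10 q of 5.09 and replicate 2 listed 10505199 to 10505396 with 2.98, and these met each other but no combined region. It was the only such case on the arms, and replicate 1 had 4 over all chromosomes. A comment line of the combined list records 1 chromosome III region, 278 bp wide with a −log10 q of 8.17, as dropped when positions were carried to WS220. Its position belongs to the earlier build and was not matched to these regions.

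With that pair included, 26 replicate 1 regions and 21 replicate 2 regions of the arms met no combined region, and they were weak. On the left arm the strongest were 2439284 to 2439303 in replicate 1, 20 bp wide with a −log10 q of 3.20, and 654388 to 654525 in replicate 2, with 3.24. On the right arm replicate 2 reached 3.29, at 13721395 to 13721440. In the other direction, 7 of the 349 combined regions of the right arm spanned several regions of a replicate list, and 0 of the 299 of the left arm did. Both arms together thus had 7 of 648, near the 70 of 5999 over all chromosomes, and the difference between the arms was not tested. No neighbouring regions of any list lay closer than 200 bp.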
